A study of Drosophila melanogaster with 12 samples.

Results

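The comparison set male against female heads of Drosophila melanogaster from populations that had evolved under enforced monogamy. Members were chosen by library and by level: the 3 male and 3 female libraries of the monogamous populations, paired by population number, and the genes with a mean normalised value of 10 or more over these 6 libraries. This left 10521 of 11236 genes and 6 of the 12 libraries of the series. The other 6 libraries, male and female heads of 3 polygamous populations, served for the estimate of spread and for a short comparison at the end. Selection had lasted 117 generations in every population, followed by 1 generation of shared rearing. All flies were virgins 4 days old, kept with their own sex until their heads were dissected for RNA. Each library was therefore 1 sex of 1 population, and the population was the replicate. The labels do not say how many flies were pooled per library.

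Sex in the fly is read cell by cell from the number of X chromosomes. The switch gene Sxl is on in females and directs splicing of tra, which in turn sets the sex-specific forms of dsx and fru. Where Sxl is off, as in males, the MSL complex with its roX RNAs assembles on the single X and raises its transcription. In the head, much of the known sex difference lies in the fat body that surrounds the brain, which makes yolk protein in females, and in sense organs and circuits of courtship. In whole heads, fewer cells of a type and less RNA per cell cannot be told apart.

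The 6 libraries held 39205033 to 49057923 recovered reads. The female library of population 1 stood apart from the other libraries. Its median absolute deviation from the mean of the other females was 0.40 log2 units, against 0.23 and 0.21 for the females of populations 2 and 3 and 0.07 to 0.10 for the males. In it, 1449 genes lay more than 2-fold below the mean of the other female libraries and 151 lay more than 2-fold above. The sex difference of each gene list is therefore given with all 3 pairs and without the pair of population 1, which leaves populations 2 and 3. Genes beyond the largest differences and the lowest p of each list were named after their values were seen.

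Male and female heads differed at 2171 of 10521 genes with all 3 pairs (20.6%, limma with population as a block, Benjamini-Hochberg adjusted p under 0.05). Of these, 1330 were higher in males (12.6% of genes tested) and 841 were lower (7.99%). Most of the differences were small. Among the called genes 145 were more than 2-fold higher and 227 more than 2-fold lower in males, and 28 and 41 passed 4-fold. All 2171 had the same sign in the 3 pairs, as did 6118 of the 10521 genes tested. The calls rest on these same pairs, so the shared sign is no separate evidence. The male libraries lay wholly above the female libraries at 3366 genes (32.0%) and wholly below at 1389 (13.2%).

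Without the pair of population 1 the count was 5167 (49.1%), with 3936 genes higher (37.4%) and 1231 lower (11.7%) in males. Of the 2171 genes called with all pairs, 2142 (98.7%) were called again in the same direction and 0 in the opposite one. They made up 41.5% of the 5167. A further 3025 genes were called only without population 1, of which 2622 were higher and 403 lower in males. At 933 of the genes then called higher, the pair of population 1 pointed the other way. Leaving out population 2 or 3 in place of population 1 gave 862 and 616 genes, and leaving out any polygamous population gave 868 to 996.

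The deposited values summed to nearly the same total in every library. On this scale the median gene stood 0.13 log2 units higher in males with all pairs and 0.14 without population 1. After rescaling with TMM factors the median gene stood at 0.02 and 0.01. The called genes then numbered 1794, with 557 higher and 1237 lower in males (5.29% and 11.8% of genes tested), and without population 1 they numbered 3851, with 1920 higher and 1931 lower (18.2% and 18.4%). Upper-quartile scaling gave 286 higher and 974 lower with all pairs, and 1971 higher and 1915 lower without population 1. The balance of higher and lower genes thus changed with the scaling. Small differences are read below against these medians, and the TMM result is given for lists and genes whose calls it moved most.

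The roX RNAs, which carry the MSL complex on the male X, were nearly confined to male heads. Expression of lncRNA:roX1 (FBgn0019661, chromosome X) was 75628, 72119 and 66661 normalised counts in males of populations 1 to 3, against 254, 327 and 296 in females. Every male library was far above every female library, and the log2 difference was 7.93 (SE 0.10, limma adjusted p = 1.4e-06). lncRNA:roX2 (FBgn0019660, chromosome X) was at 2359, 2538 and 2352 in males, against 18, 17.4 and 11.7 in females (log2 difference 7.20, SE 0.13, limma adjusted p = 3.77e-06). These values also check the sex labels, and each library fell with its label. msl-2, the subunit whose translation is blocked in females, read 2716, 2838 and 2628 in males, against 1482, 1839 and 1762 in females. Its groups did not overlap, and the log2 difference of 0.69 (limma adjusted p = 0.0057) was 0.60 without population 1 (limma adjusted p = 0.000122).

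Over the 9 genes of the dosage compensation list, 3 were higher in males and 0 lower with all pairs, namely both roX RNAs and msl-2. The same 3 were the only members called after TMM scaling, with and without population 1. The helicase gene mle had a log2 difference of 0.12, the acetyltransferase gene mof one of 0.14, and msl-1 one of 0.40, and none of these passed. Without population 1, msl-3 (0.29) and the kinase gene JIL-1 (0.11) were called as well, but neither passed after TMM scaling.

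The sex determination genes measured at the level of whole genes turned on the female library of population 1. Sxl (FBgn0264270) read 14924, 15694 and 15165 in males, against 4961, 19674 and 20452 in females. In populations 2 and 3 the female value was the higher, and in population 1 it was far below the male. The log2 difference was 0.28 with all pairs (limma adjusted p = 0.61) and -0.38 without population 1 (limma adjusted p = 0.00027). The splicing regulator tra behaved in the same way, at 610.1, 604 and 718 in males and 393, 797 and 828 in females, and its difference of 0.01 became -0.30 (limma adjusted p = 0.00765). fru, which encodes the courtship transcription factor, read 7149.7, 7214 and 7039 in males and 2758, 8207 and 8444 in females. Its difference was 0.31 with all pairs and -0.22 without population 1 (limma adjusted p = 0.479 and 0.00706). dsx, the other output of the cascade, was 0.45 and 0.18 without passing in either case (limma adjusted p = 0.108 and 0.113). Whole-gene counts do not separate the sex-specific splice forms of these genes. Of 11 genes in the list, 0 were called with all pairs, and snf was lower after TMM scaling (-0.28, limma adjusted p = 0.0412). Without population 1, fl(2)d (0.11), a cofactor of Sxl splicing, was higher, and Sxl, tra and fru were lower. After TMM scaling these 3 and snf (-0.22), which encodes a splicing factor, were lower and fl(2)d did not pass.

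Yolk protein genes had the largest differences toward females. Yp1 (FBgn0004045, chromosome X) was at 1565, 1524 and 1797 in male heads, against 1136750.0, 830706 and 915573 in female heads. That is 590.0 times more in females on the group means, with a log2 difference of -9.19 (SE 0.13, limma adjusted p = 1.4e-06). Yp2 differed by -9.07 and Yp3 by -8.09, and the female library of population 1 was the highest of the 6 for all 3 genes. The 3 yolk genes took 0.0115% ± 0.000808 of all signal in males and 4.79% ± 0.994 in females (SD, n = 3 each). Without population 1 the log2 differences were -9.04, -8.85 and -7.88.

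Other genes of the head fat body were split between the sexes. sxe2, a lipase gene named for its sex-specific expression, reached 22438, 21890.1 and 23998 in males, against 3372, 2884 and 3153 in females (log2 difference 2.86, SE 0.08, limma adjusted p = 4.6e-05). The cytochrome P450 gene Cyp4d21, also known as sxe1 and linked to male courtship, was at 15392, 18519 and 23420.2 in males and 2218, 3335 and 4055 in females (2.60, limma adjusted p = 0.00047). Both kept clear gaps between the sexes in every population. The satiety gene fit, a female-biased fat body secretion, was the reverse, at 2869.7, 3464 and 5090.0 in males and 19076, 14055 and 14858 in females (-2.10, limma adjusted p = 0.00618). takeout (to), known for roles in feeding and male courtship, did not pass here. It read 9534, 8669.5 and 9412 in males and 11846, 8071 and 9399 in females, a log2 difference of -0.07 (SE 0.15, limma adjusted p = 0.753). Of 8 fat body genes tested, 2 were higher and 1 lower in males. Without population 1 the lipoprotein gene apolpp was lower too (-0.40).

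**Figure D1:**
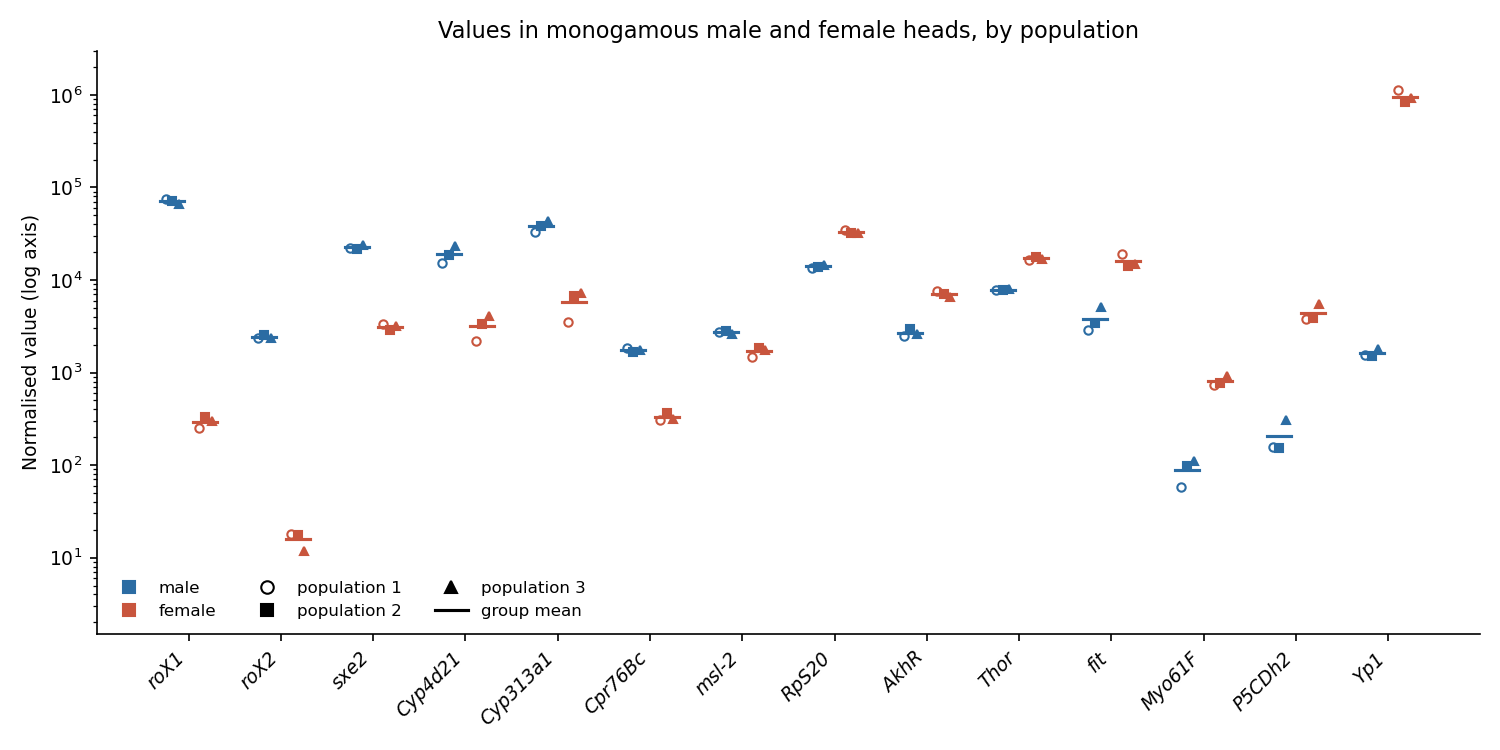
Normalised value (log axis) of 14 genes in each monogamous library, male left of female for each gene. Open circles, squares and triangles mark populations 1, 2 and 3 and bars the group means. roX1 and roX2 lie at 66661 to 75628 and 2352 to 2538 in males, Yp1 at 830706 to 1136750.0 in females, and male and female libraries do not overlap for any gene shown.

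Several of the genes most raised in males belong to sense organs, the cuticle and the P450 family. The largest difference after the roX RNAs was at atk, which encodes a matrix protein needed for the cilia of sensory neurons. It measured 731, 717 and 894 in males and 37, 24.4 and 69.1 in females (log2 difference 4.26, SE 0.44, limma adjusted p = 0.00404). brv3, a TRP-family channel gene of the brivido group known from cold sensing, was at 109.7, 112 and 138 in males and 17, 4.64 and 14.1 in females (3.38, limma adjusted p = 0.0036). Male and female libraries were far apart for both. The P450 gene Cyp313a1 was abundant in both sexes, with 33216, 38420.1 and 43442 in males and 3516, 6650.5 and 7162 in females (2.79, limma adjusted p = 0.000709). Cyp4d14 rose by 2.68. fiz, an oxidase gene linked to ecdysone, rose by 2.71, and Lsp1alpha, a larval storage protein gene, by 3.18. The uncharacterised genes CG30088 (3.34), CG14195 (2.86) and CG15927 (2.62) and the cuticle protein genes Cpr11A (3.07) and Cpr76Ba (2.65) completed the 15 largest. CG30088 and Lsp1alpha were not called without population 3, and the other 13 kept their call without any other single population.

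The genes most reduced in males after the yolk proteins were of several kinds. CG5246, of the serine protease family, was at 3.5, 6.56 and 3.5 in males and 251, 188 and 260.1 in females (log2 difference -5.44, SE 0.36, limma adjusted p = 0.00146). P5CDh2, a dehydrogenase gene of proline breakdown, was at 159, 152 and 310.5 in males and 3820.0, 3838 and 5538 in females (-4.46, limma adjusted p = 0.000773). The sexes were far apart in every population for both. Myo61F, an unconventional myosin, fell to 58.3, 98.3 and 109.7 in males, against 726, 768 and 922 in females (-3.21, limma adjusted p = 0.00047). rost, known from myoblast fusion, fell by 2.93, and arg, the arginase gene of nitrogen metabolism, fell by 2.83. phu was at 3599, 1879 and 1168 in males and 47875, 18958 and 40972 in females (-4.07, limma adjusted p = 0.00285), with a wide spread in both sexes. The remaining genes were CG10814 (-5.03), snoRNA:Psi28S-1232 (-4.49), CG15399 (-4.25), CG31465 (-4.02), CG34148 (-3.40) and CG43175 (-2.81). Of these 15 genes only CG43175 lost its call when a population was left out, which happened in 5 cases.

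Genes of the cytoplasmic ribosome were lower in males. Of 79 ribosomal protein genes tested, 77 were lower in males and 0 higher, with a median log2 difference of -0.97 against 0.13 for all genes. RpS15Ab (-0.26) and RpL24-like (-0.47) did not pass. Together they took 3.74%, 3.86% and 4.12% of all signal in males of populations 1 to 3, against 9.52%, 6.90% and 6.84% in females. The gap was widest in population 1, where the median difference was -1.34, and stood at -0.84 and -0.74 in populations 2 and 3. For each of the 79 genes all male libraries lay below all female libraries, and the female library of population 1 was the highest for 78. RpS20 read 13498, 13972 and 14532 in males and 34713, 32347 and 32139.8 in females (log2 difference -1.24, SE 0.08, limma adjusted p = 0.00158). Without population 1, 78 were lower, and 67 to 72 were lower when any other population was left out. The list median after TMM scaling was -1.09, and -0.92 without population 1.

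Other parts of the translation machinery went the same way with smaller numbers. Among 43 translation factor genes, 17 were lower and 0 higher in males with a median of -0.27, and without population 1, 26 were lower and 5 higher. When another population was left out, 8 to 11 were lower. eEF1gamma, a subunit of translation elongation factor 1, measured 22478, 22079 and 22948 in males and 72498, 55714 and 58607 in females (log2 difference -1.46, SE 0.11, limma adjusted p = 0.00187). eEF1beta (-1.26), eEF1delta (-0.87) and eIF3b (-0.71) were lower too. Small nucleolar RNAs, which guide modification of ribosomal RNA, and their host genes were lower at 17 of 44 and higher at 0, with a median of -0.72. The host gene Uhg1 had 272, 327 and 322 in males against 764, 614 and 827 in females (-1.25, limma adjusted p = 0.00343), and Uhg2 differed by -1.16. Single snoRNAs lie inside introns of host genes and may share reads with them, so their values are uncertain. The snoRNA count was 7 to 10 when another population was left out. Mitochondrial ribosomal protein genes were different, with 0 of 70 called in either direction and a median of -0.05. Without population 1, 22 of them were higher and 0 lower. That share of 31.4% was below the 37.4% of all genes, and the median was 0.12 against 0.14. Without population 1 and after TMM scaling, 4 were higher and 1 lower.

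Oxidative phosphorylation and proteasome genes were called only without population 1. With all pairs 0 of 69 respiratory genes passed, although 47 had positive values. Without population 1, 51 were higher and 0 lower, with a median of 0.20 against 0.14 for all genes. The share higher was 73.9%, against 37.4% of all genes. After TMM scaling 10 of the 69 were higher, a share below the 18.2% of all genes. Of 34 proteasome genes 0 passed with all pairs. Without population 1, 19 were higher (55.9%, against 37.4% of all genes), and 0 passed after TMM scaling. The growth regulator Myc, a known activator of ribosome synthesis, was among the genes called only without population 1. It read 1715, 1848 and 1769 in males and 1493, 4879.6 and 5003 in females. The female library of population 1 lay below all males and the other females far above, so the log2 difference was -0.90 with all pairs (limma adjusted p = 0.0906) and -1.45 without population 1 (limma adjusted p = 2.16e-05).

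Genes of neurons were higher in males, and the size of the difference was much larger in population 1. Of 30 neuronal genes, 8 were higher and 0 lower in males with all pairs, and 28 higher and 0 lower without population 1. When another population was left out, 3 to 4 were higher, and 4 were after TMM scaling with all pairs. The list median was 1.02 and 0.29 in these cases, against 0.13 and 0.14 for all genes. In population 1 alone it was 2.32, against 0.30 and 0.31 in populations 2 and 3. The 30 genes took 1.40%, 1.39% and 1.35% of signal in males, against 0.296%, 1.09% and 1.06% in females. The female library of population 1 was the lowest of the 6 for 28 of the 30 genes. After TMM scaling without population 1, 16 were higher and 1, the potassium channel gene slo (-0.19), was lower, with a median of 0.16.

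The neurotransmitter genes held best. ChAT, which makes acetylcholine, was at 8114, 8126 and 7828 in males and 4313, 5306 and 5035 in females (log2 difference 0.72, SE 0.08, limma adjusted p = 0.00529). Gad1, which makes GABA, was at 35889.7, 36857 and 45916 in males and 14287, 22412 and 29058 in females (0.90, limma adjusted p = 0.0122). Vmat, the vesicular monoamine transporter, differed by 0.71 and VGlut, the vesicular glutamate transporter, by 0.79. Without population 1 these 4 differences were 0.63, 0.69, 0.56 and 0.55, each called, and each was called after TMM scaling as well. VGlut lost its call when population 2 or any polygamous population was left out. Among synaptic genes, Snap25 (0.72), Nrx-1 (0.68) and the microtubule protein gene futsch (1.20) also passed with all pairs, but not after TMM scaling. The pan-neuronal marker elav stood at 0.69 and 0.17, and was called only without population 1 and not after TMM scaling. Voltage-gated channel genes repeated the pattern, with 0 of 17 called with all pairs despite a median of 0.94, and 13 higher without population 1 with a median of 0.22. Shal, a potassium channel gene, read 9315, 9144 and 8869 in males and 3265, 6851 and 6788 in females (0.77, limma adjusted p = 0.0542, and 0.40, limma adjusted p = 0.000165, without population 1).

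**Figure D2:**
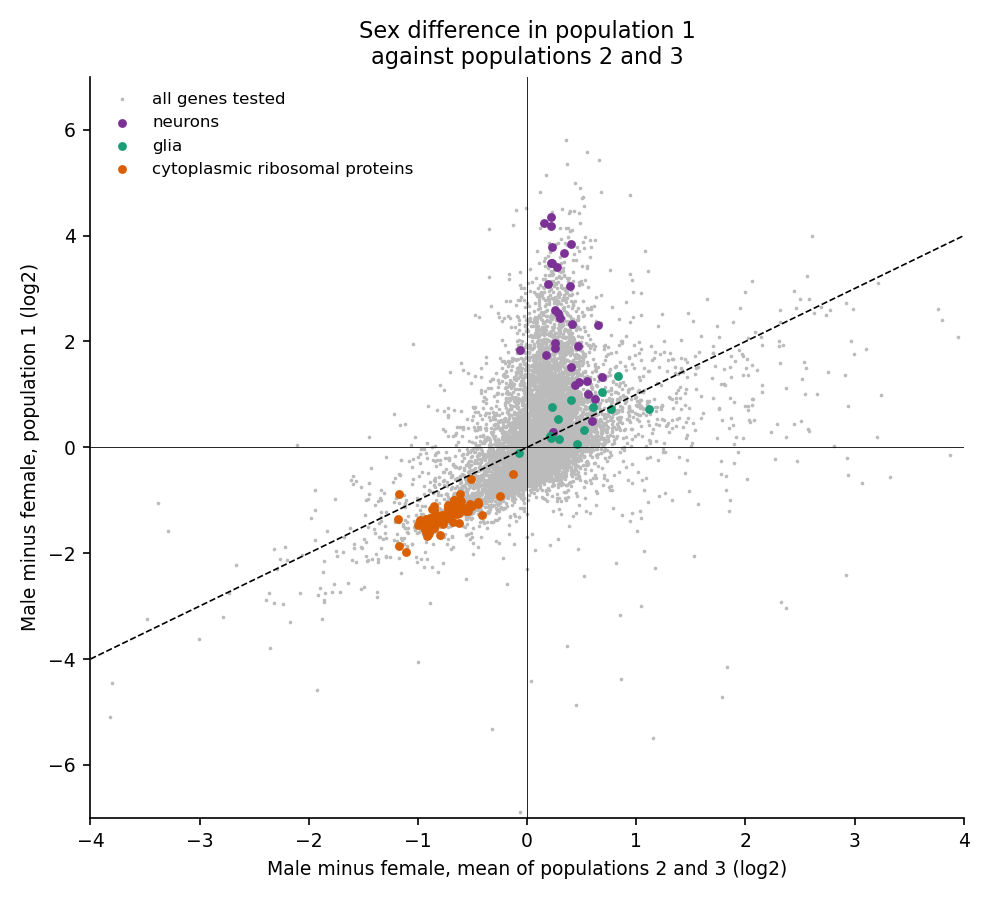
Sex difference of each gene in population 1 (vertical axis, male minus female, log2) against the mean of populations 2 and 3 (horizontal axis), for all genes tested (grey) and the neuronal, glial and ribosomal protein lists. The dashed line marks equal differences, and 16 genes lie outside the axes. Most neuronal genes rise far above the line, with a median of 2.32 in population 1, glial genes lie around it, and most ribosomal protein genes lie below it, all at negative values.

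Glial genes gave a difference of the same size with and without population 1. Of 14 tested, 9 were higher and 0 lower in males with all pairs (median 0.43), and 13 were higher and 0 lower without population 1 (median 0.43). Their share of signal was 0.610%, 0.534% and 0.541% in males, against 0.377%, 0.365% and 0.360% in females, and the libraries of the sexes did not overlap. Gat, the GABA transporter of astrocyte-like glia, was at 15705, 12838 and 12479 in males and 6153, 7289 and 6965 in females (log2 difference 1.00, SE 0.12, limma adjusted p = 0.00584). alrm, an astrocyte marker, was at 9771, 8359 and 8411 in males and 5940.0, 4049.9 and 3695 in females (0.98, limma adjusted p = 0.00404). nrv2, a sodium pump subunit, differed by 0.81 and Gs2, the glutamine synthetase that recycles glutamate, by 0.66. The glial identity gene repo stood at 0.21 and passed only without population 1. The count fell to 3 to 6 when another population was left out and was 7 after TMM scaling. Without population 1, TMM scaling left 10 higher and 1, the transporter gene Indy (-0.19), lower.

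List medians of photoreceptor, clock and neuropeptide genes with all pairs (0.22, 0.19 and 0.15) were below those of neuronal and glial genes (1.02 and 0.43). Of 22 phototransduction genes, 3 were higher and 0 lower in males (13.6% higher, close to the 12.6% of all genes). Without population 1, 17 were higher (77.3% against 37.4% of all genes, median 0.27), and 8 after TMM scaling. Galphaq, the G protein that couples rhodopsin to phospholipase, was at 48838, 49914 and 53152 in males and 22852, 38393 and 40878 in females (log2 difference 0.62, limma adjusted p = 0.0412). ninaC, a photoreceptor myosin, differed by 0.41 and ninaB, the enzyme that makes the chromophore, by 0.34. The 3 calls with all pairs were lost after TMM scaling and when any population but the first was left out. Of 12 clock genes 0 were called with all pairs. Without population 1 the repressor gene cwo was lower (-0.36) and 5 were higher (41.7%, close to the 37.4% of all genes). Among 35 neuropeptide genes 7 were higher and 2 lower in males, and 21 higher and 3 lower without population 1 (12 and 3 after TMM scaling). AstA (0.34), AstC (0.42) and Nplp1 (0.44) were higher, and CNMa was lower, at 150.5, 207 and 155 in males and 683, 417 and 679.7 in females (-1.77, limma adjusted p = 0.0131). Without population 3, 0 neuropeptide genes were called. Genes for biogenic amines were higher at 6 of 13 and lower at 1, and at 7 and 1 without population 1, but at 2 to 4 and 0 to 1 when another population was left out. The dopamine transporter gene DAT rose by 0.48, ebony (e), which conjugates dopamine in glia and cuticle, by 0.75, and Henna (Hn), which makes tyrosine, fell by 0.60.

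The pair of population 1 differed from the others by the length and place of genes as well. Genes were split into quartiles by exon length in the reference annotation, with median lengths of 874.5, 1604, 2557 and 5090 bases. The median sex difference over these quartiles, short to long, was -0.30, -0.14, 0.08 and 0.75 in population 1. In population 2 it was 0.04, 0.09, 0.13 and 0.17, and in population 3 it was 0.12, 0.14, 0.17 and 0.18. The 84 genes of chromosome 4 had a median of 1.68 in population 1, against 0.22 and 0.19 in populations 2 and 3. Of these 84, 50 were in the longest quartile, and there their median in population 1 was 1.95, against 0.73 for 2472 long genes of other chromosomes. The part of exon length in the neuronal and other differences of population 1 was not tested. With all pairs 5 genes of chromosome 4 were higher and 1 lower (5.95% and 1.19%, against 12.6% and 7.99% of all genes). Without population 1, 57 were higher and 6 lower (33 and 9 after TMM scaling). On the deposited scale those shares were 67.9% and 7.14%, against 37.4% and 11.7% of all genes.

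**Figure D3:**
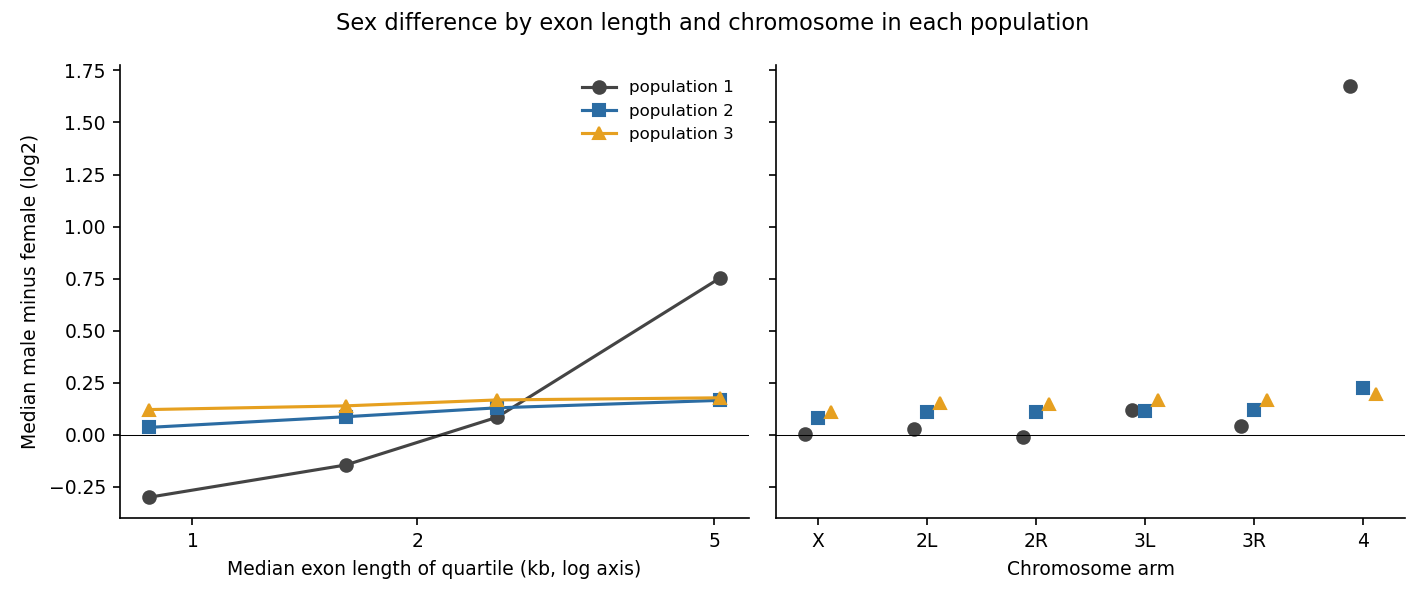
Median male minus female difference (log2) by quartile of exon length (left, log axis) and by chromosome arm (right), for each population. Population 1 runs from -0.30 in short genes to 0.75 in long genes and reaches 1.68 on chromosome 4, while populations 2 and 3 stay between 0.04 and 0.22.

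Single genes showed how far 1 library could move the estimate. The female library of population 1 held 32 counts of Frq1, a calcium sensor of synapses, against 1384 and 1178 in the other females and 1857, 1698 and 1583 in males. The log2 difference was 2.18 with all pairs and 0.36 without population 1. For acj6, a transcription factor of olfactory neurons, it held 58, against 1381 and 1339 in the other females and 1318, 1268 and 1268 in males. There the difference of 1.43 became -0.10, and -0.23 after TMM scaling, which passed (limma adjusted p = 0.0183). Estimates also fell at CG5890 (2.23 and 0.55), CG10734 (2.02 and 0.36), trv (2.25 and 0.66) and Reph (1.69 and 0.12). None of these 6 passed with all pairs, and on the deposited scale Frq1, CG5890 and trv passed without population 1.

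Several estimates that rose without population 1 were at genes high in 1 or 2 male libraries. CG14125 was at 23.3, 1142 and 1136 in males and 36, 1.16 and 5.86 in females, so that its difference was 5.27 with all pairs and 8.21 without population 1 (limma adjusted p = 0.17 and 0.0192). The digestive protease genes alphaTry, at 2.33, 586 and 8.17 in males and 12, 2.32 and 1.17 in females, and Jon65Aiv, at 2.33, 582 and 8.17 in males and 7, 3.48 and 1.17 in females, were high only in the male library of population 2. Jon65Aiii followed them with 575 in that library and at most 10.5 in the other 5. The amylase gene Amy-p, at 626 and 787 in males of populations 2 and 3, was also at 608 in the female of population 3. Of 7 gut genes 0 were called with all pairs and 4 were higher without population 1, 2 of them after TMM scaling. Immune genes were uneven too: DptA, an antibacterial peptide gene, read 2185 in the female of population 1 and 476 in the male of population 3, against 6.56 to 99.6 in the other 4 libraries. Of 13 antimicrobial peptide genes 0 were called with all pairs. AttB was -0.16 with all pairs and 1.84 without population 1 (limma adjusted p = 0.0387), and did not pass after TMM scaling.

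Genes of pheromone sensing were higher in males where they passed. Of 11 genes, 6 were higher and 0 lower with all pairs, with a median log2 difference of 0.77. Or67d, the receptor for the male pheromone cis-vaccenyl acetate, differed by 1.04 and by 0.81 without population 1. lush, the binding protein that acts with it, was at 3393, 3781 and 4120.1 in males and 2196, 2242 and 2487 in females (0.70, SE 0.09, limma adjusted p = 0.00612). Or47b, which detects fly odours and promotes courtship in males, was at 274, 290.3 and 322 in males and 127, 162 and 172 in females (0.95, limma adjusted p = 0.0103). Or88a rose by 0.78 and Snmp1, the membrane protein needed for pheromone responses, by 0.41. Or67d and Or47b lost their call without population 3, and Or88a and Snmp1 without population 2 or 3. These 5 were also called without population 1, before and after TMM scaling, while Gr33a (0.77), a taste receptor that inhibits courtship between males, was called only with all pairs. When another population was left out, 1 to 5 of the 6 were called. The pickpocket channel genes of contact pheromone sensing, ppk23 (0.22), ppk25 (0.61) and ppk29 (0.81), did not pass.

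Odorant-binding protein genes divided by member. Of 33 tested, 4 were higher and 11 lower in males. Obp56a was at 127, 116 and 126 in males and 860.0, 528 and 503 in females (log2 difference -2.30, SE 0.17, limma adjusted p = 0.00185). Obp56e, its neighbour in the same cluster, was at 2172, 2055 and 2661 in males and 16731, 13346 and 10157 in females (-2.52, limma adjusted p = 0.00235). Obp56f (-2.15), Obp83ef (-1.55) and Obp83cd (-1.04) were lower as well. Obp56h of the same cluster went the other way (0.93), as did Obp69a (0.76), Obp49a (0.49) and Obp44a (0.47). Without population 1, 11 were higher and 11 lower, and when another population was left out 1 to 2 were higher and 7 to 8 lower. Among 48 odorant receptor genes 3 were higher and 4 lower (6.25% and 8.33%, against 12.6% and 7.99% of all genes), and 5 and 5 without population 1, and Or9a (-0.86) and Or59b (-0.66) were among the lower ones. Of 18 gustatory receptor genes 2 passed, both higher, and neither did after TMM scaling, while 1 was higher without population 1. Of 26 ionotropic receptor genes 1 passed with all pairs, and after TMM scaling Ir76a (-0.41) and Ir8a (-0.49) were lower as well, while without population 1, 2 were higher and 3 lower. The gene that passed was Ir31a, at 197, 186 and 237 in males and 54, 99.8 and 103 in females (1.31, limma adjusted p = 0.0103).

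**Figure D4:**
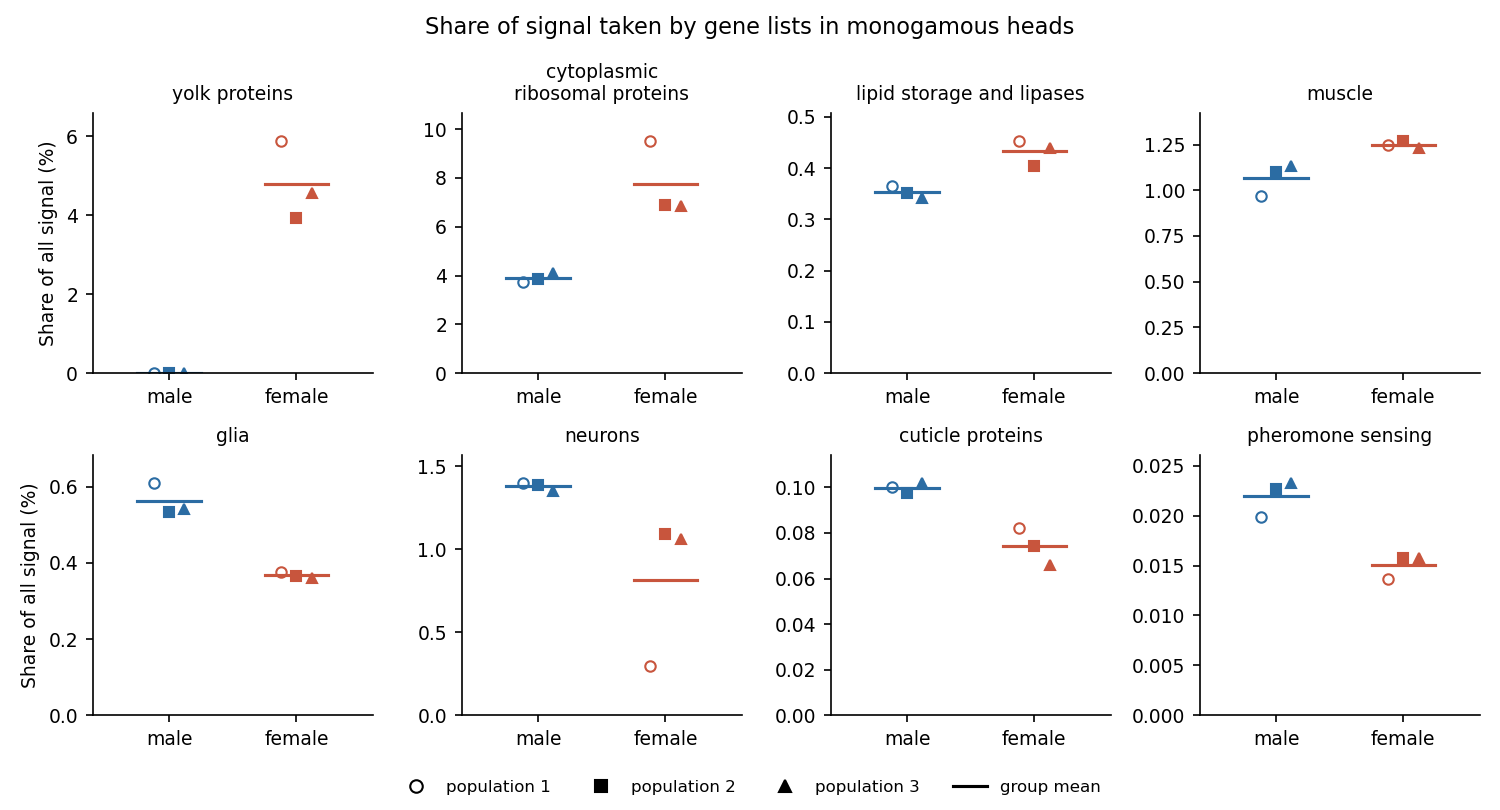
Share of all signal (%) taken by 8 gene lists in each library, male left of female. Symbols mark populations and bars the group means. Ribosomal protein genes take 3.74% to 4.12% in males and 6.84% to 9.52% in females, and the neuronal share of the female library of population 1, 0.296%, lies far below the other females.

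Genes of lipid storage were mostly lower in males where they passed, and those of the insulin pathway passed in both directions. Of 18 lipid storage and lipase genes, 2 were higher and 7 lower, and 5 higher and 9 lower without population 1. AkhR, the receptor through which adipokinetic hormone mobilises fat, was at 2479, 2949 and 2597 in males and 7600.0, 7007 and 6618 in females (log2 difference -1.40, SE 0.09, limma adjusted p = 0.00146). The perilipin genes Lsd-1 and Lsd-2, whose proteins coat lipid droplets, differed by -1.08 and -0.67. Lip2 (1.42) and Lip1 (0.66) were higher. Thor, the translation inhibitor 4E-BP, was at 7767, 7859.5 and 8036 in males and 16633, 17803 and 16815 in females (-1.11, limma adjusted p = 0.00193). Ilp6, the insulin-like peptide of the fat body, read 1202, 1117 and 1182 in males and 1725, 2579.7 and 2569 in females (-0.95, limma adjusted p = 0.00934), and Ilp3 from brain cells differed by -0.56. ImpL2, which binds insulin-like peptides, was higher (0.58) but not after TMM scaling with all pairs. Over the 15 insulin pathway genes 1 was higher and 3 lower with all pairs, and 6 were higher and 4 lower without population 1 (2 higher and 7 lower after TMM scaling). Ilp6, Ilp3 and Lsd-1 lost their call when population 3 was left out, and the count of lower lipid genes was then 2.

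Hormone-degrading enzymes differed in both directions. Of 13 juvenile hormone genes 3 were higher and 0 lower in males, and 6 and 1 without population 1 (1 and 0 with all pairs and 4 and 4 without population 1 after TMM scaling). Jhe, the esterase that inactivates juvenile hormone, was at 1266, 671 and 1073 in males and 446, 185 and 240.2 in females (log2 difference 1.84, SE 0.21, limma adjusted p = 0.00514). Cyp18a1, which inactivates ecdysone, was at 649, 832 and 858 in males and 1730.0, 1960.0 and 1846 in females (-1.25, limma adjusted p = 0.00111). Cytochromes P450 as a family were called in 29 of 77 cases, 11 higher and 18 lower in males. Those shares were 14.3% and 23.4%, against 12.6% and 7.99% of all genes. Without population 1, 19 were higher and 22 lower (24.7% and 28.6%, against 37.4% and 11.7% of all genes). When another population was left out, 4 to 7 were higher and 6 to 13 lower. Cyp4e3 (-1.34), Cyp6d2 (-1.40) and Cyp304a1 (-1.26) were lower, and Cyp4d2 (0.74) and Cyp305a1 (0.62) higher. Of 32 glutathione transferase genes 3 were higher and 2 lower (9.38% and 6.25%, below the shares of all genes), and 13 higher and 5 lower without population 1 (9 and 7 after TMM scaling). GstE2 rose by 0.73 and GstT1 fell by 0.64. Of 24 UDP-glycosyltransferase genes 3 were higher and 2 lower (12.5% and 8.33%, close to all genes), and 6 and 4 without population 1, with Ugt301D1 at 3357, 3451 and 3109 in males and 1851, 1961 and 1859.7 in females (0.80, limma adjusted p = 0.00285). Among 11 genes of cuticular hydrocarbon synthesis 0 were higher and 3 lower, namely FASN2 (-1.12), bond (-0.41) and Desat1 (-0.51), each of which lost its call when population 2 or 3 was left out. Without population 1, 3 were higher and 3 lower, and 2 higher and 5 lower after TMM scaling.

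Cuticle protein genes that passed were mostly higher in males, and pigment genes were split. Males had higher values at 16 of 50 cuticle protein genes and lower values at 2. These shares were 32.0% and 4.0%, against 12.6% and 7.99% of all genes. The counts were 18 and 1 without population 1. The higher share was then 36.0%, close to the 37.4% of all genes, and the lower share 2.0% against 11.7%. When another population was left out, the counts were 7 to 12 and 1. Cpr76Bc was at 1841, 1673 and 1758 in males and 305, 369 and 319 in females (log2 difference 2.41, SE 0.09, limma adjusted p = 0.000184). Its neighbours Cpr76Bb (2.18), Cpr76Ba (2.65) and Cpr76Bd (0.59) were also higher, as were Cpr78Ca (2.12) and Cpr49Ae (1.11), while Lcp65Ac (-1.69) and Ccp84Ab (-1.15) were lower. After TMM scaling 10 were higher and 3 lower, and Cpr76Bd was not called. Of 17 pigmentation genes 4 were higher and 3 lower, and 8 and 3 without population 1, but 0 to 1 were lower when another population was left out. yellow-e was at 1483, 1229 and 1507 in males and 549, 507 and 504 in females (1.43, limma adjusted p = 0.00107), yellow-c rose by 1.06 and yellow-h by 0.88, and yellow-d (-0.47), yellow-f (-0.43) and yellow-f2 (-0.32) were lower.

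Heat shock genes were mostly higher in males where they passed. Blood cell genes on the deposited scale exceeded the shares of all genes in both directions. Toll-induced peptides were lower with all pairs where they passed. Of 19 heat shock genes 6 were higher and 0 lower in males (31.6% higher, against 12.6% of all genes). Without population 1, 12 were higher and 1 lower (63.2% and 5.26%, against 37.4% and 11.7% of all genes). After TMM scaling with all pairs 4 were higher and 1 lower. Hsp27, a small chaperone gene, was at 2534, 2222 and 3308 in males and 1242, 1196 and 930.4 in females (log2 difference 1.25, SE 0.23, limma adjusted p = 0.0165), and Hsp68 differed by 0.93. The near-identical Hsp70 copies may share reads. Without population 3, 0 heat shock genes were called. Of 13 hemocyte genes, 5 were higher and 3 lower after TMM scaling with all pairs, and 4 and 3 without population 1. On the deposited scale 6 were higher and 3 lower without population 1 (46.2% and 23.1%, against 37.4% and 11.7% of all genes). There, 3 to 4 were higher and 0 to 1 lower when another population was left out. With all pairs 6 were higher and 2 lower (46.2% and 15.4%, against 12.6% and 7.99% of all genes). The 6 were the basement membrane genes vkg (0.68), Col4a1 (0.54) and Pxn (0.60) and the receptors NimC1 (0.52), NimC2 (0.68) and crq (0.29). The 2 were the blood cell transcription factor genes lz (-0.56) and srp (-0.55). Bomanins, short peptides induced by the Toll pathway, were lower at 4 of 12 and higher at 0. Without population 1, 7 were lower and 2 higher, and 2 were lower when another population was left out. BomT2 was at 4036, 3529 and 3507 in males and 17476, 6927 and 6405 in females (-1.32, limma adjusted p = 0.0158), with the female of population 1 far above the others.

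Markers of muscle, testis and other tissues were examined as well. Muscle genes took 0.970%, 1.10% and 1.13% of signal in males and 1.25%, 1.27% and 1.23% in females. Of 22, 0 were called with all pairs (4 lower after TMM scaling) and 6 were lower and 1 higher without population 1 (10 lower and 0 higher after TMM scaling). Testis genes had 4 tested members, of which 1 was called higher, with and without population 1. The sperm gene Mst87F was at 15.2, 6.56 and 118 in males and 7, 2.32 and 5.86 in females, and betaTub85D at 85.2, 73 and 440.0 in males and 51, 47.6 and 57.4 in females, so that the male library of population 3 stood out. Their part in the result was not tested. Of the accessory gland list 0 genes reached the minimum level, and 0 genes of the Y-linked list matched the gene table.

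X-linked genes were called lower in males somewhat more often than genes of chromosomes 2 and 3, a difference that was not tested. Of 1669 X-linked genes, 203 were higher (12.2%) and 166 lower (9.95%) in males, against 1062 (12.7%) and 637 (7.64%) of 8334 genes on chromosomes 2 and 3. The median log2 difference was 0.11 on X and 0.13 on chromosomes 2 and 3, and 0.10 and 0.14 without population 1. Without population 1, 34.5% of X-linked genes were higher and 15.3% lower, against 37.5% and 10.9% on chromosomes 2 and 3. After TMM scaling 105 of 1669 X-linked genes were higher and 263 lower, against 428 and 925 of 8334 on chromosomes 2 and 3. The shares over all genes tested were then 5.29% and 11.8%. Without population 1 the counts after TMM scaling were 302 and 417 on X, with a median of -0.03. On chromosomes 2 and 3 they were 1505 and 1421, with a median of 0.01.

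**Figure D5:**
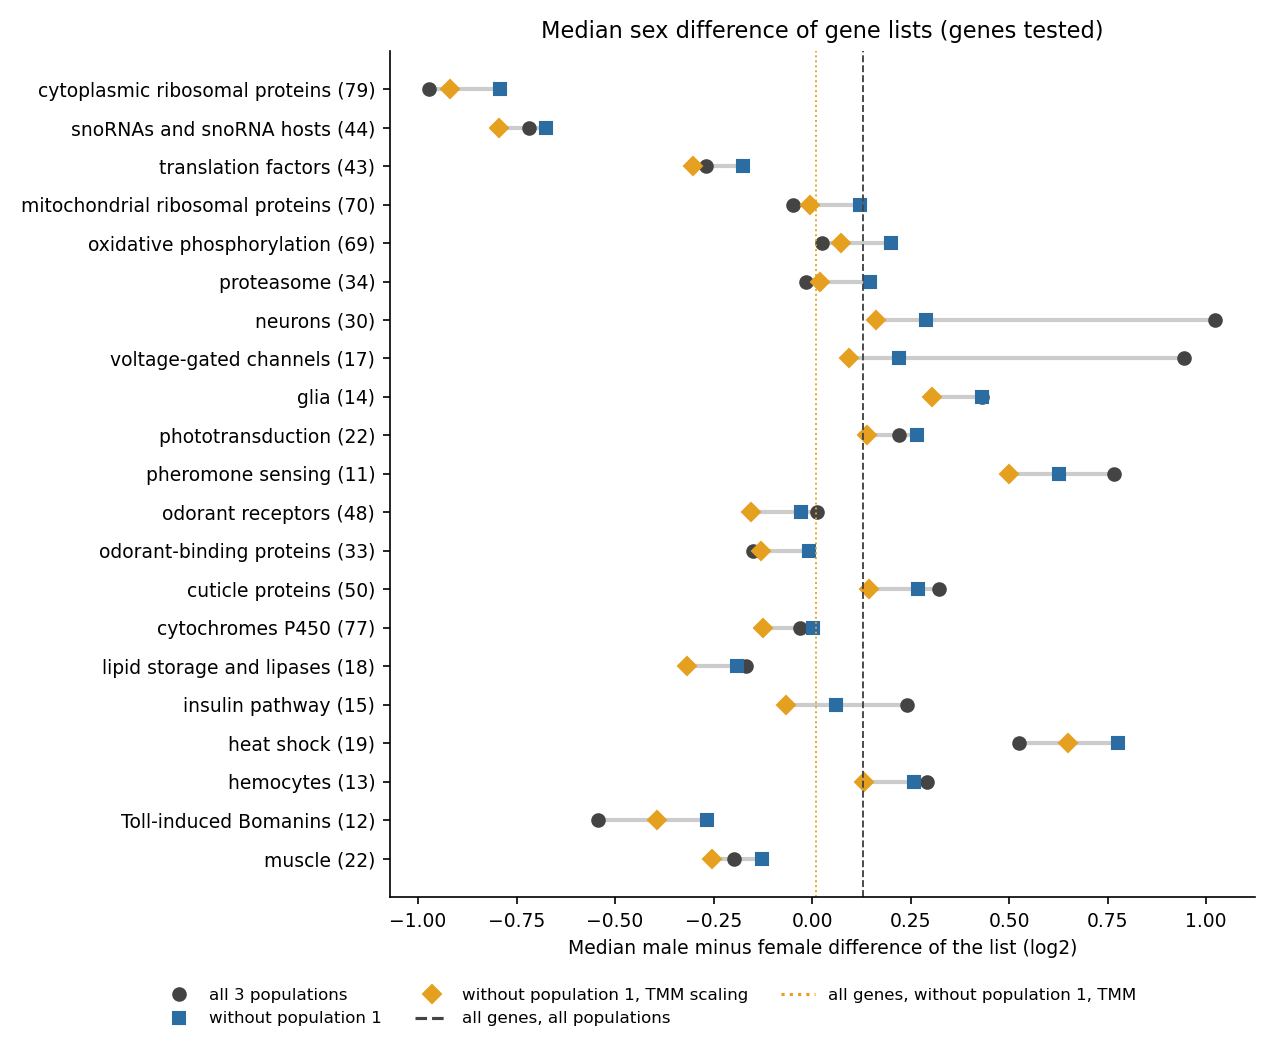
Median male minus female difference (log2) of 21 gene lists with all pairs (circles), without population 1 (squares), and without population 1 after TMM scaling (diamonds), with the number of genes tested in parentheses. Dashed and dotted lines mark the medians of all genes, 0.13 with all pairs and 0.01 without population 1 after TMM scaling. Among the 21 lists shown, neurons and voltage-gated channels move most between settings, from 1.02 and 0.94 to 0.29 and 0.22. Ribosomal proteins stay at -0.97 to -0.79. Antimicrobial peptide and gut genes, which moved further, are not shown.

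Under polygamy the same contrast called 688 genes (6.54%), 380 higher (3.61%) and 308 lower (2.93%) in males. Of the 2171 genes called under monogamy 525 were called there in the same direction and 9 in the opposite one. The contrasts share no library but share the estimate of spread. The polygamous contrast was fitted only with all 12 libraries, so its spread includes the pair of monogamous population 1. Its counts without that pair were not obtained. Ribosomal protein genes were lower at 31 of 79 under polygamy (median -0.59), neuronal genes were called at 0 of 30 (median 0.23) and glial genes at 1 of 14 (median 0.16). The sex difference itself differed between the mating systems at 9 genes (0.0855%), all more positive under monogamy, and without population 1 at 326 (3.1%), 252 more positive (2.4%) and 74 more negative (0.703%). Without population 1 these included 6 of the 14 glial genes, more positive under monogamy, and the 3 yolk protein genes, more negative. Leaving out any other population gave 0 to 2 genes. Cda4, a chitin deacetylase gene, was 0.91 higher in males under monogamy and 0.42 lower under polygamy (difference of the differences 1.34, limma adjusted p = 0.0464).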

How the data were processed

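Head RNA was extracted with RNAzol and sequenced from Illumina mRNA-Seq libraries, per the labels' protocols. TopHat2, HTSeq, DESeq2 and genome build BDGP5 are named in the submitters' processing notes, with versions not given in the sources used here. Whether strand was used in counting is not stated, so overlapping and antisense genes cannot be told apart. The authors deposited 1 table of normalised counts per gene, a signal scaled so that libraries sum to nearly the same total. Low values in each library were whole multiples of 1 step, and 100% came out whole within a tolerance of 0.1, giving 34558521 to 52282995 reads per library over 12 libraries.

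Genes whose mean reached 10 across the 6 monogamous libraries were tested with limma 3.58.1 (R 4.3.3) on log2(value + 1), with population as a block and all 12 libraries sharing the spread. This scale understates the change of low genes. P-values were adjusted over all 10521 genes with the Benjamini-Hochberg method at 0.05, two-sided. On the recovered reads, edgeR 4.0.16 called 1804 genes and DESeq2 1.42.0 called 2023. Samples were paired because male and female libraries carry the same population in their titles. Deviations from the group means correlated at 0.0907, 0.160 and 0.133 within populations and at -0.140 to -0.0139 between them. Symbols, chromosomes and exon lengths came from a BDGP6 annotation matched by gene identifier, for 10086 symbols and 10087 chromosomes of the genes tested. Coordinates were not used because the builds differ.

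Named genes were the sex determination, roX and yolk genes and fit and to, the 15 largest called differences in each direction, the 8 largest in each direction called only without population 1, the 6 whose estimate rose and the 6 whose estimate fell most without it, up to 4 of lowest p in each list, and up to 5 genes differing between mating systems. The comparison and the gene lists were chosen with earlier results of these data known, and 1 gene was removed from the cuticle list after the table was seen. The code was tested on simulated data. Alternatives covered scaling, pseudocount, filter, block, tool and each population left out.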

Additional observations from a re-analysis of the deposited data

Results flagged for a closer look

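At 9 genes the sex difference itself differed between the mating systems with all pairs (limma interaction, Benjamini-Hochberg adjusted p = 0.0464 to 0.0477), and each was more positive under monogamy. Cda4, a chitin deacetylase gene, had a difference of differences of 1.34 log2 units, with 0.91 under monogamy and -0.42 under polygamy. CG8736 had 3.29 (0.62 and -2.67), Vajk3 3.01 (0.52 and -2.49) and CG7214 3.31 (0.73 and -2.58). Acp1, a cuticle protein gene, had 3.11 (0.78 and -2.34), CG7203 had 2.06 (0.47 and -1.59) and Cpr97Eb, also a cuticle protein gene, had 1.58 (0.30 and -1.28). CG11458 had 2.26 (-0.95 and -3.21) and CG3713 1.32 (0.12 and -1.20). Of the 9 genes, Cda4, Acp1 and CG11458 were themselves called between male and female heads under monogamy.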

How the results depend on the processing

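The count of 2171 genes was 23 with the monogamous libraries alone, 1260 after upper-quartile scaling, 4025 without the block and without the female library of population 1, and 616 to 5167 when 1 population was left out. Without population 1, the count of 5167 was 2754 with DESeq2. The replicate block, taken from the shared population, gave 2171 genes against 2334 without it, and 5167 against 3398 without population 1. The count of 9 genes differing between mating systems was 78 with DESeq2, 0 without the replicate block, 0 after upper-quartile scaling, 11 with edgeR, and 0 to 326 when 1 population was left out. On the deposited scale with the block, 799 genes passed an unadjusted p under 0.05. With 1 population left out the log2 difference ran from -0.38 (without population 1) to 0.63 for Sxl, from -0.30 (without population 1) to 0.21 for tra, from -0.22 (without population 1) to 0.59 for fru, and from -1.70 to 1.84 (without population 1) for AttB. It also changed sign without the block and the female library of population 1 for Sxl (-0.39), tra (-0.34) and fru (-0.22). The cause was not tested. Of 120 named genes called, 70 kept their call under every alternative other than the monogamous libraries alone. What limited the calls, depth or the 3 populations in a group, was not tested.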
